A study of Mus musculus with 14 samples.

Results

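The genes described here were 35 genes of cholesterol and fatty acid synthesis: 18 enzymes of the sterol branch, 11 enzymes of the fatty acid branch and 6 genes that control or serve the pathway. They were listed by name, by their place in the pathway, and each was represented by the probe set of highest mean log2 signal over the 14 arrays, out of 17149 genes with a probe set tested. All 35 members had a signal above 20 on every array, the lowest being 22.2 for Hsd17b7 on 1 Sca-1Hi array.

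Expression was measured on Affymetrix mouse arrays in cells of the developing and the adult prostate. The UGE group held 3 arrays of urogenital sinus epithelium, the embryonic tissue from which the prostate buds, taken from C57BL/6 embryos at day 16 and not sorted by Sca-1. The other 11 arrays came from the prostate of male mice (C57BL in the labels, C57BL/6 in the methods), 6 to 8 weeks old by the labels, whose cells, digested from the part of the ducts nearest the urethra, were sorted by the surface level of the stem cell antigen Sca-1 into Sca-1Hi (3 arrays), Sca-1Lo (4 arrays) and Sca-1Neg (4 arrays). The labels name no transgene, deletion or treatment in any group. The sort used Sca-1 alone, so each fraction could hold every cell type of the dissected ducts with that level of Sca-1. The sources do not say whether replicates came from separate animals, and the p-values measure the spread between arrays, which may be technical.

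Cholesterol is built from acetyl-CoA through mevalonate, isoprenoid units, squalene and lanosterol, and fatty acids are built from the same acetyl-CoA through malonyl-CoA and then lengthened and desaturated. Both branches are switched on by the SREBP transcription factors, which Scap carries from the endoplasmic reticulum when sterols are low and which the Insig proteins hold back when sterols are plentiful. Dividing cells need both products for new membranes, and the adult prostate is known for high, androgen-driven lipid synthesis in its secretory epithelium.

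The signal of a probe set is a model-based intensity on a linear scale, normalized over the arrays together, and the levels of different genes cannot be set against each other. The median signal of the probe sets tested lay between 80.7 and 99.5 on the 14 arrays and the 75th percentile between 233.3 and 388.4. The adult arrays carry running numbers (here study numbers), whose meaning is not given in the sources used here. They fell into 2 sets, numbers 1 and 2 against numbers 3 to 5: between arrays of different groups, deviations from the group means correlated at -0.09 to 0.70 within a set and at -0.68 to 0.12 across sets. Replicate 1 of Sca-1Hi and replicates 1 and 2 of Sca-1Lo and of Sca-1Neg belong to numbers 1 and 2. Counts against Sca-1Neg are therefore also given for either set of adult arrays alone, with all 3 UGE arrays kept. The groups also differed in markers of other cells and in RNA integrity. The summed signal of 12 leukocyte markers was 1631 to 2599.97 in UGE, 1019 to 2699.8 in Sca-1Hi, 2291 to 9809 in Sca-1Lo and 6383 to 52371 in Sca-1Neg, with Ptprc at or below 20 on every Sca-1Hi array and the sum highest on Sca-1Neg replicates 1 and 2. For 5 smooth muscle markers the sum was 977 to 2741 in UGE, 7618 to 22159.5 in Sca-1Hi, 9719 to 21379.5 in Sca-1Lo and 24131 to 69339.5 in Sca-1Neg. The sum of 6 secretory genes of the prostate was 37.3 to 109 in UGE, where Pbsn, Svs2, Svs6 and Spink1 were at or below 20, and 26891 to 68104 in the adult groups together. The sum of 6 endothelial markers was 157 to 591 in UGE, 6483 to 12063 in Sca-1Hi, 3917 to 8569 in Sca-1Lo and 990.1 to 3663 in Sca-1Neg. The sum of 4 basal cell markers was 20174 to 25932 in UGE, 15172 to 22560.2 in Sca-1Hi, 7165 to 23440.0 in Sca-1Lo and 785 to 6408 in Sca-1Neg, that of 4 epithelial markers 21216 to 29891 in UGE and 5911 to 23299.7 over the adult arrays, and that of 5 fibroblast markers 5206 to 14326 in UGE, 4759 to 40859 in Sca-1Hi, 7375 to 47871 in Sca-1Lo and 10083 to 34138 in Sca-1Neg. The 3 cell cycle markers measured summed to 7318 to 9904 in UGE and 324 to 969.8 over the adult arrays. The log2 ratio of the 3′ to the 5′ control probe set of Gapdh, which rises as RNA is degraded or shortened in labelling, was 1.83 to 2.38 in UGE, 3.07 to 3.48 in Sca-1Hi, 1.98 to 3.22 in Sca-1Lo and 1.66 to 2.75 in Sca-1Neg. The part of these differences in the results below was not tested, and in such bulk samples fewer cells of a type and less RNA per cell cannot be told apart.

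Promoter sequences of 28 of the 35 members were at hand, 37 in all (RefSeq, mouse build GRCm38.p6). Each ran from 250 bases before to 50 bases after a start of its gene. A gene was counted where any of its promoters held the letters searched. Genes of this pathway are known to be bound by SREBP together with NF-Y, a factor that recognizes the letters CCAAT. On either strand, CCAAT stood in the promoters of all 15 sterol enzymes that have a sequence, of 5 of 8 fatty acid enzymes and of 4 of 5 regulators, against 41.1% of all 27025 genes with a promoter sequence and 41.9% of the 13645 of them measured on the array. The GC box GGGCGG stood in 23 of 28 members, against 38.2% of all genes and 59.4% of those on the array, and the E-box CACGTG in 5 of 28, against 8.09% and 10.4%. The sterol regulatory element searched as TCACNCCAC on either strand was found only in Hmgcs1, 1 of 28 members, against 1.44% of all genes. By promoter in place of gene, CCAAT stood in 25 of the 37 member promoters, against 37.4% of all promoters. A match is a run of letters and not a measured binding site. A few promoters are shown because the results below turn on these genes: Hmgcs1, Idi1, Cyp51 and Acsl3 were higher in UGE than in Sca-1Neg, and Acss2 was lower. Capitals mark CCAAT, or ATTGG where it lies on the other strand, and the sterol regulatory element TCACCCCAC of Hmgcs1, and each sequence runs 5′ to 3′ along the strand of its gene.
Hmgcs1, chr13:119690101-119690400, plus strand: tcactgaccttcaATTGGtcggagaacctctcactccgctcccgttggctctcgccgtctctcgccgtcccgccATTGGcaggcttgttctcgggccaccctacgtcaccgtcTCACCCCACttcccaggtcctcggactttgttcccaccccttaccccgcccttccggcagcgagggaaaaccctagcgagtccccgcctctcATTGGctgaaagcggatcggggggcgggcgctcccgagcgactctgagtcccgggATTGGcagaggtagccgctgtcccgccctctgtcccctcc
Idi1, chr13:8885356-8885655, plus strand: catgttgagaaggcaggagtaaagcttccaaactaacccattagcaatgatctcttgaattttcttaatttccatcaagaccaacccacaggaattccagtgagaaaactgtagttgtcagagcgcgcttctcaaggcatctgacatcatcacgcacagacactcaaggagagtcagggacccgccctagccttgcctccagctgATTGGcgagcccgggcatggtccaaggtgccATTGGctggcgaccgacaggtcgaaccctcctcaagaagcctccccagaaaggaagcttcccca
Cyp51, chr5:4104648-4104947, minus strand: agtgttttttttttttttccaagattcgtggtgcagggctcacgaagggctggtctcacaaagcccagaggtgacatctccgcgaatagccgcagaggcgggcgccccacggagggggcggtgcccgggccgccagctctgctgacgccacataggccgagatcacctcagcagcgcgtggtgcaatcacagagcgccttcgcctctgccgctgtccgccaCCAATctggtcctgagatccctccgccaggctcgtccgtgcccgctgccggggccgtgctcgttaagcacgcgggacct
Acsl3, chr1:78657575-78657874, plus strand: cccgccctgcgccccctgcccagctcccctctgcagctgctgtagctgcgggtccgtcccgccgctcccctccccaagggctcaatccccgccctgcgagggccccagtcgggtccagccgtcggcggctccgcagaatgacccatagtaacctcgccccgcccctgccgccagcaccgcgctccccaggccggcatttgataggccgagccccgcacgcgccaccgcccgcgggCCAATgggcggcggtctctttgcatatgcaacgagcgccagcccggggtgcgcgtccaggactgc
Acss2, chr2:155517793-155518092, plus strand: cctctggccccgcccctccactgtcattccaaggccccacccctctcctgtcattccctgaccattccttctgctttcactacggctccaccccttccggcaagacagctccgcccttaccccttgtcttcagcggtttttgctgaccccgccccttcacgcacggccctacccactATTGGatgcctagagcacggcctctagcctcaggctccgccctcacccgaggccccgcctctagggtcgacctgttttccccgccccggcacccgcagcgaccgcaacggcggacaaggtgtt
The Hmgcs1 promoter held 4 CCAAT boxes, all on the opposite strand, and 1 sterol regulatory element which shared no base with them. The Idi1 promoter held 2 boxes, and the promoters of Cyp51, Acsl3 and Acss2 had 1 each. No sequence was at hand for Fdps, Stard4, Fads1, Scd1, Scd2, Sqle and Fdft1. A link between these letters and the differences below was not tested.

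Sterol and fatty acid enzymes had median differences above 0 in UGE against each adult fraction, and the sterol enzymes had a median difference well below 0 in Sca-1Hi against Sca-1Neg. A member was called where its difference passed an adjusted p of 0.05 over all probe sets tested and its size was above the fold minimum of the study's methods, 0.81 on the log2 scale (limma, Benjamini-Hochberg). Against Sca-1Neg, 8 of 35 members were higher in UGE, where 16.3% of all genes were called higher, and 2 were lower, where 12.9% of all genes were called lower. The 8 were 5 sterol enzymes, Hmgcs1, Idi1, Sqle, Cyp51 and Dhcr7, and 3 fatty acid enzymes, Acaca, Scd2 and Acsl3, and the 2 were the fatty acid enzymes Acss2 and Scd1. The share of members called higher, 8 of 35, was thus not far above that of all genes, while the differences lay above 0 for 28 of 35 members against 9089 of 17149 genes, with a median log2 difference of 0.48 against 0.07. With arrays centred on their 75th percentile, 7 members were higher and 2 lower in UGE against Sca-1Neg, while all genes split into 2258 higher and 2771 lower in place of 2794 higher and 2207 lower. Against Sca-1Hi, 17 members were higher in UGE, 12 sterol enzymes (Hmgcs1, Pmvk, Idi1, Fdps, Fdft1, Sqle, Lss, Cyp51, Msmo1, Hsd17b7, Sc5d and Dhcr7) and 5 fatty acid enzymes (Acaca, Fasn, Scd2, Elovl6 and Acsl3), where 15.8% of all genes were called higher, and 1 was lower, Scd1, where 12.0% of all genes were. The median log2 difference between UGE and Sca-1Hi was 1.59 over the sterol enzymes, 1.11 over the fatty acid enzymes and -0.00015 over all genes. Against Sca-1Lo, 17 members were higher in UGE (13.4% of all genes) and 2 were lower (12.2% of all genes), with medians of 1.09 over the sterol enzymes, 0.78 over the fatty acid enzymes and -0.04 over all genes.

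In Sca-1Hi against Sca-1Neg no member was called higher, where 6.11% of all genes were, and 10 were called lower, where 5.21% of all genes were. These were 9 sterol enzymes, Idi1, Fdps, Fdft1, Sqle, Lss, Cyp51, Msmo1, Hsd17b7 and Sc5d, and the fatty acid enzyme Elovl6. The median log2 difference was -0.87 over the 18 sterol enzymes, -0.42 over the 11 fatty acid enzymes and 0.03 over all genes. No member was called in Sca-1Lo against Sca-1Neg by limma, where 1.68% of all genes were called higher and 0.828% lower. An unadjusted p under 0.05 was found for 6 of 35 members, against 2511 of 17149 genes. The methods' t-test after adjustment called none there, and limma with array weights called 6 higher and 4 lower, where it called 16.7% of all genes higher and 9.26% lower. The median log2 difference there was -0.41 over the sterol enzymes and 0.02 over the fatty acid enzymes, beside 0.08 over all genes. No member was called in Sca-1Hi against Sca-1Lo either, where 0.0816% of all genes were called higher and 0.0175% lower. There 8 of 35 members had an unadjusted p under 0.05, against 1374 of 17149 genes, and 26 of 35 lay below 0, against 9379 of 17149. All comparisons with Sca-1Neg used the same 4 arrays, so their values are given side by side and not counted together.

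**Figure D1:**
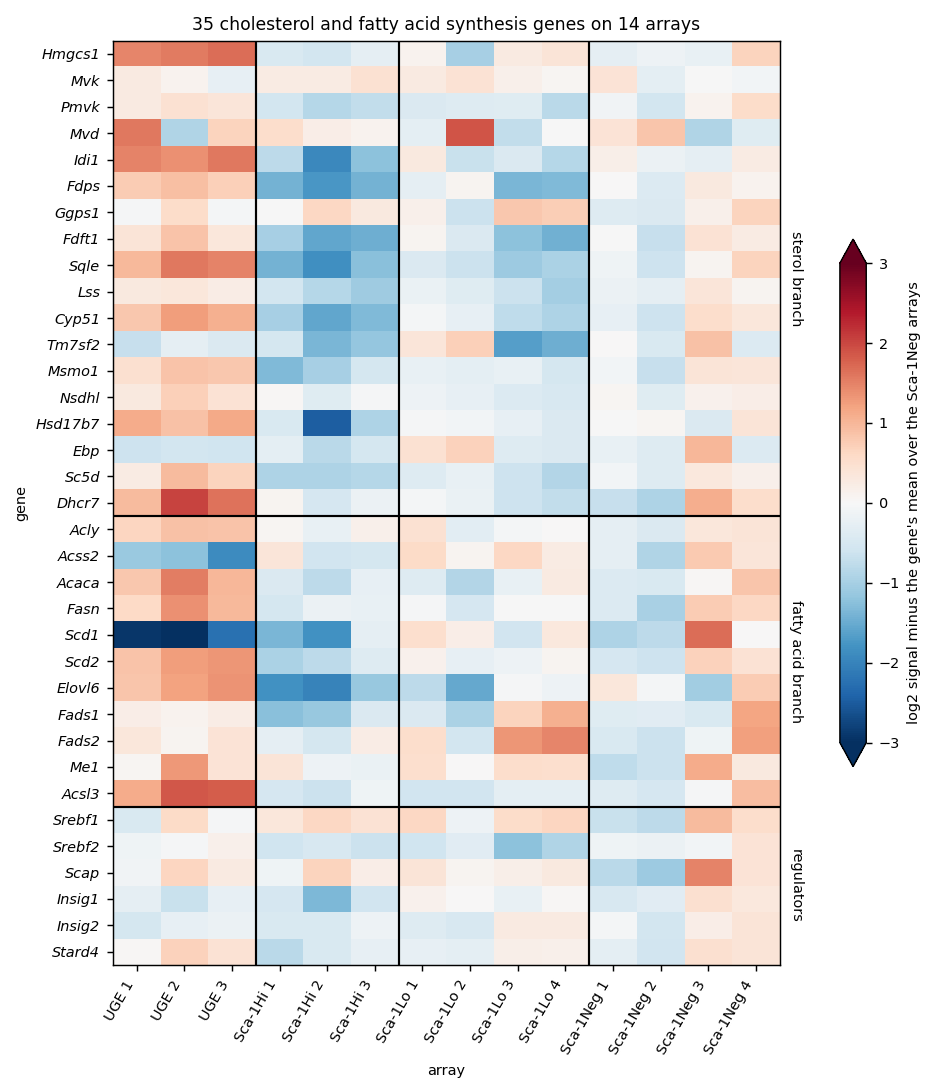
Log2 signal of the 35 members (rows, in pathway order within the sterol branch, the fatty acid branch and the regulators) on the 14 arrays (columns), minus the mean of the gene over the 4 Sca-1Neg arrays; red is higher and blue lower, and colours end at 3 log2 units. Most sterol enzymes are red on the UGE arrays and blue on the Sca-1Hi arrays, while Scd1 and Acss2 are blue in UGE.

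These counts rested on few arrays. The 8 members called higher in UGE against Sca-1Neg became 4 without UGE replicate 2, UGE replicate 3 or Sca-1Neg replicate 1, and 5 without Sca-1Neg replicate 2, while all genes higher, 2794, became 1883, 2026, 2171 and 2168 without the same arrays in that order. Hmgcs1, Idi1, Sqle and Acsl3 kept their call whichever array was left out, as did Scd1 among the 2 that were lower, whereas Acss2 lost it without UGE replicate 3 and the number lower was then 1. With the adult arrays of study numbers 1 and 2 alone, 17 members were higher in UGE (27.9% of all genes) and 1 was lower (16.8%), and with those numbered 3 to 5 alone 2 were higher, Hmgcs1 and Idi1 (10.8% of all genes), and 2 were lower (12.7%). The 10 members lower in Sca-1Hi became 0 without Sca-1Hi replicate 2, 3 without Sca-1Hi replicate 3, 4 without Sca-1Neg replicate 1 or 4, and 6 without Sca-1Hi replicate 1, Sca-1Neg replicate 3 or UGE replicate 3, so no call of that comparison held under every omission. All genes lower in Sca-1Hi, 893, fell to 299 (1.74%) without Sca-1Hi replicate 2, 571 (3.33%) without Sca-1Hi replicate 3, 557 (3.25%) and 612 (3.57%) without Sca-1Neg replicate 1 or 4, 639 (3.73%) without Sca-1Hi replicate 1 and 722 (4.21%) without UGE replicate 3, and were 1116 (6.51%) without Sca-1Neg replicate 3. Within numbers 1 and 2, where Sca-1Hi has 1 array, 1 member was lower, Elovl6 (3.52% of all genes), and within numbers 3 to 5 there were 10 (4.18%), 8 of them sterol enzymes. In the fit for numbers 1 and 2 the lone Sca-1Hi array is assumed to vary like the other groups, and the counts of the 2 sets cannot be set against each other. Within numbers 3 to 5, 2 members were also lower in Sca-1Lo than in Sca-1Neg, Fdps and Fdft1 (0.554% of all genes). With the 2 sets as a block among the adult arrays, 8 members were lower in Sca-1Hi (7.05% of all genes) and none was higher (8.46%). In UGE against Sca-1Lo the 17 members higher became 9 without UGE replicate 2 or UGE replicate 3 (8.82% and 9.25% of all genes) and 11 without Sca-1Lo replicate 4 (12.7%). In UGE against Sca-1Hi the number stayed between 15 and 18, while all genes higher, 2712, were 1900 to 2915. There 15 of the 17 members were called whichever array was left out. By representing probe sets, the single lower member of UGE against Sca-1Hi was Scd1. Its call was lost without UGE replicate 1 or 2, Sca-1Hi replicate 1 or 3 or Sca-1Lo replicate 1 or 4. The number lower was then 0 (8.8% to 11.6% of all genes), and without Sca-1Neg replicate 2 or 3 it was 2 (12.5% and 13.3%). It was also 0 with the adult arrays numbered 3 to 5 alone (13.2% of all genes), and with numbers 1 and 2 alone the 2 members lower in UGE than in Sca-1Lo were 4, Acss2 and Scd1 with Ebp and Tm7sf2 (15.8% of all genes).

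The first steps of the sterol branch supply mevalonate and the isoprenoid units. Hmgcs1, the synthase that forms the precursor of mevalonate, gave signals of 5118, 5449 and 5892 in UGE, 1343, 1262 and 1518 in Sca-1Hi, 1987, 929, 2231 and 2390.1 in Sca-1Lo and 1518, 1653, 1577 and 2914 in Sca-1Neg. All 3 UGE arrays lay above all 11 adult arrays, and the adult groups overlapped. The level in UGE was 2.97-fold that in Sca-1Neg (log2 difference 1.57 ± 0.33, SE, adjusted p = 0.00334, limma), 3.09-fold that in Sca-1Lo, and also called against Sca-1Hi (adjusted p = 0.00109, limma). In Sca-1Hi it was not called against Sca-1Neg (-0.43 ± 0.33), unlike 9 enzymes further down the branch, though a difference between these effects was not tested. The kinases Mvk and Pmvk and the decarboxylase Mvd turn mevalonate into isopentenyl diphosphate. Pmvk gave 306, 351 and 327 in UGE, 175, 140.0 and 152 in Sca-1Hi, 189, 194, 198 and 147 in Sca-1Lo and 236, 175, 276 and 371 in Sca-1Neg. UGE lay above Sca-1Hi and Sca-1Lo but within the range of Sca-1Neg, with log2 differences of 1.08 ± 0.27 against Sca-1Hi and 0.86 ± 0.26 against Sca-1Lo (adjusted p = 0.0106 and 0.0276, limma), and 0.36 ± 0.26 against Sca-1Neg. Mvk, at a mean of 88.4 ± 15.7 in UGE, 105 ± 9.39 in Sca-1Hi, 99.8 ± 11.8 in Sca-1Lo and 86 ± 18.2 in Sca-1Neg (SD), was not called in any comparison by this probe set. Mvd ranged from 84.2 to 466 in UGE, 168 to 224 in Sca-1Hi, 93.8 to 574 in Sca-1Lo and 84.3 to 281 in Sca-1Neg, and all groups overlapped.

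Idi1, the isomerase that makes isopentenyl diphosphate usable for chain building, had signals of 1369.9, 1269.6 and 1470.1 in UGE, 284, 129 and 209 in Sca-1Hi, 602, 309, 361 and 269.9 in Sca-1Lo and 555, 434, 407 and 585 in Sca-1Neg. It separated UGE from the adult arrays with no overlap, and all 3 Sca-1Hi arrays lay below the 4 Sca-1Neg arrays. UGE was 2.79-fold above Sca-1Neg (1.48 ± 0.32, adjusted p = 0.00382, limma) and 6.94-fold above Sca-1Hi (2.80 ± 0.34, adjusted p = 5.9e-05, limma), and Sca-1Hi was 2.48-fold below Sca-1Neg (-1.31 ± 0.32, adjusted p = 0.0182, limma). A difference of 1.48 between UGE and Sca-1Neg was found with the adult arrays numbered 1 and 2 and one of 1.49 with those numbered 3 to 5. Fdps, which joins the units to farnesyl diphosphate, gave 366, 404 and 356 in UGE, 80.3, 64.5 and 81 in Sca-1Hi, 179, 229, 83.9 and 86.6 in Sca-1Lo and 218, 163, 265 and 231 in Sca-1Neg. Its Sca-1Hi arrays were the lowest of all, all 3 under the 4 Sca-1Lo arrays, of which the arrays of numbers 1 and 2 lay near Sca-1Neg and the others near Sca-1Hi. Sca-1Hi was 2.88-fold below Sca-1Neg (-1.53 ± 0.34, adjusted p = 0.0118, limma), whereas UGE, above Sca-1Neg on all arrays, was not called against it (0.79 ± 0.34, adjusted p = 0.0997, limma). Ggps1, which diverts farnesyl diphosphate to the lipid anchors of proteins and away from sterols, was called in no comparison, with log2 differences between -0.15 (UGE against Sca-1Hi) and 0.30 (Sca-1Hi against Sca-1Neg).

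The next enzymes form squalene and close it to the first sterol. Fdft1, the squalene synthase and the first enzyme committed to sterols, had signals of 1468, 2034 and 1430.4 in UGE, 566, 385 and 408 in Sca-1Hi, 1207, 833, 478 and 419.6 in Sca-1Lo and 1128, 705, 1538 and 1339 in Sca-1Neg. The adult arrays of numbers 3 to 5 were low in Sca-1Hi and Sca-1Lo and high in Sca-1Neg. Sca-1Hi was 2.54-fold below Sca-1Neg (-1.34 ± 0.38, adjusted p = 0.0338, limma), a difference of -0.66 within numbers 1 and 2 and of -1.86 within numbers 3 to 5, and UGE against Sca-1Neg was not called (0.52 ± 0.38). Sqle, the squalene epoxidase and a rate-limiting step of the branch, gave 1865, 2837 and 2661 in UGE, 358, 264 and 398 in Sca-1Hi, 708, 612, 444 and 493 in Sca-1Lo and 868, 614, 1010.4 and 1522 in Sca-1Neg. The 4 groups followed each other with little overlap: UGE above Sca-1Neg, and Sca-1Hi below both Sca-1Lo and Sca-1Neg on every array, with only Sca-1Lo and Sca-1Neg overlapping. UGE was 2.54-fold above Sca-1Neg (1.34 ± 0.31, adjusted p = 0.00623, limma), 4.35-fold above Sca-1Lo and 7.21-fold above Sca-1Hi, and Sca-1Hi was 2.84-fold below Sca-1Neg (-1.51 ± 0.31, adjusted p = 0.00826, limma). The difference between UGE and Sca-1Neg was 1.73 with the adult arrays numbered 1 and 2 and 0.96 with those numbered 3 to 5, where it was not called (adjusted p = 0.068, limma). Lss, which closes oxidosqualene to lanosterol, had 288, 296 and 272 in UGE, 159, 129 and 111 in Sca-1Hi, 202, 182, 149 and 115 in Sca-1Lo and 206, 194, 303 and 245 in Sca-1Neg. UGE overlapped Sca-1Neg and lay above Sca-1Hi and Sca-1Lo, by 2.17-fold and 1.80-fold, the call against Sca-1Lo being lost on leaving out any of 5 of the 14 arrays, and Sca-1Hi was 1.78-fold below Sca-1Neg with an adjusted p just under the threshold (0.0483, limma), a call lost when any of 12 of the 14 arrays was left out.

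The remaining sterol enzymes turn lanosterol into cholesterol. Cyp51, the lanosterol demethylase, gave 622, 844 and 740.3 in UGE, 178, 119.6 and 141 in Sca-1Hi, 342, 299.9, 209 and 188 in Sca-1Lo and 299, 232, 509 and 447 in Sca-1Neg. As with Sqle, UGE lay above every adult array and the Sca-1Hi arrays below all others. The level in UGE was 2.06-fold that in Sca-1Neg (1.04 ± 0.32, adjusted p = 0.0255, limma) and that in Sca-1Hi was 2.46-fold below it (-1.30 ± 0.32, adjusted p = 0.0182, limma). Msmo1, the oxygenase that starts the removal of the methyl groups, had signals of 937, 1203 and 1167 in UGE, 269, 336 and 462 in Sca-1Hi, 570.4, 549, 573 and 464 in Sca-1Lo and 635, 417, 881 and 859 in Sca-1Neg. UGE was above all adult arrays, 3.16-fold over Sca-1Hi and 2.04-fold over Sca-1Lo, but was not called against Sca-1Neg (0.71 ± 0.29, adjusted p = 0.0828, limma). Its lower level in Sca-1Hi (-0.95 ± 0.29, adjusted p = 0.047, limma) came with arrays that overlapped Sca-1Neg, and the call was lost when any of 13 of the 14 arrays was left out. Hsd17b7, a ketoreductase of the same demethylation, gave 268, 229 and 271 in UGE, 90.8, 22.2 and 65.8 in Sca-1Hi, 121, 117, 104 and 91.8 in Sca-1Lo and 122, 129.7, 91.5 and 163 in Sca-1Neg. Sca-1Hi replicate 2 stood near the floor of 20. Without that array the log2 difference between Sca-1Hi and Sca-1Neg was -0.68 in place of -1.28 ± 0.39 and the call was lost, as it was on leaving out any of 12 of the 14 arrays. UGE lay above all adult arrays, by 2.32 ± 0.41 against Sca-1Hi and 1.24 ± 0.39 against Sca-1Lo on the log2 scale, the call against Sca-1Lo being lost on leaving out any of 7 of the 14 arrays. Sc5d, a late desaturase, had 317, 517 and 422 in UGE, 139.6, 141 and 147 in Sca-1Hi, 203, 226, 173 and 144 in Sca-1Lo and 249, 204, 331 and 296 in Sca-1Neg. Its 3 Sca-1Hi arrays lay close together and below every Sca-1Neg array, 1.87-fold on average (-0.90 ± 0.25, adjusted p = 0.0349, limma), and UGE overlapped Sca-1Neg. Dhcr7, the reductase that makes cholesterol in the last step, gave 254, 543 and 410.1 in UGE, 140.0, 93.4 and 116 in Sca-1Hi, 128, 114, 85.8 and 79.2 in Sca-1Lo and 82.5, 69.2, 282 and 190.3 in Sca-1Neg. No difference between adult fractions was called, and UGE was high, 2.90-fold over Sca-1Neg (1.54 ± 0.45, adjusted p = 0.0206, limma), 3.34-fold over Sca-1Hi and 3.85-fold over Sca-1Lo, with 1 Sca-1Neg array within the range of UGE. Tm7sf2, a sterol reductase, Nsdhl, the dehydrogenase of the demethylation, and Ebp, a sterol isomerase, were called in no comparison. Ebp was at 489 to 513 in UGE, 433 to 615 in Sca-1Hi, 555 to 1209 in Sca-1Lo and 569 to 1502 in Sca-1Neg, with UGE below all Sca-1Lo and Sca-1Neg arrays. Nsdhl, at 766 to 1025 in UGE, 486 to 642 in Sca-1Hi, 451 to 562 in Sca-1Lo and 486 to 717 in Sca-1Neg, passed the adjusted p against Sca-1Lo (0.0195, limma) but its log2 difference of 0.80 ± 0.22 was just under the fold minimum.

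**Figure D2:**
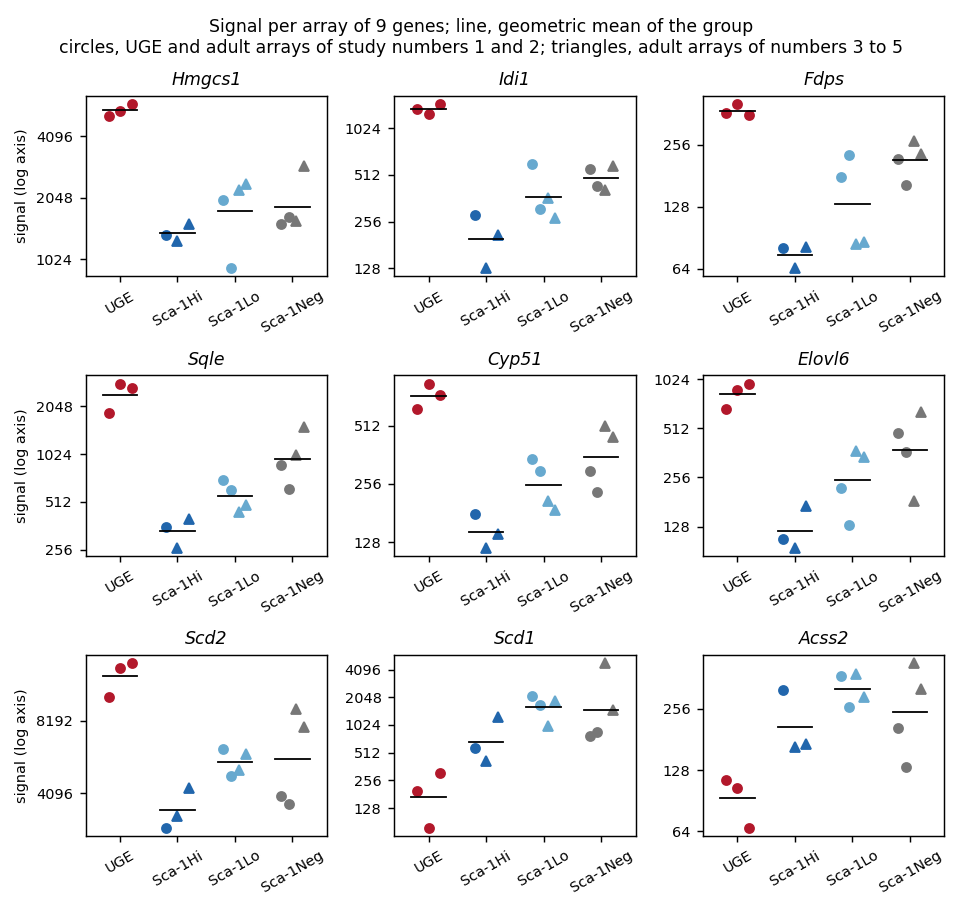
Signal on each array (vertical axis, log scale) of 9 members in the 4 groups; lines are geometric means. The UGE arrays stand above all others for Hmgcs1, Idi1, Fdps, Sqle, Cyp51, Elovl6 and Scd2 and below all others for Scd1 and Acss2, and adult arrays of study numbers 3 to 5 (triangles) differ from those of numbers 1 and 2 (circles) for several genes.

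In the fatty acid branch, calls in UGE against Sca-1Neg went in both directions. Of the enzymes that supply acetyl-CoA, Acly takes it from citrate and Acss2 from acetate. Acly was 4517 ± 396 in UGE, 2591 ± 347 in Sca-1Hi, 2678 ± 624 in Sca-1Lo and 2672 ± 761 in Sca-1Neg (SD), and all UGE arrays lay above all adult arrays. Its difference from Sca-1Neg passed the adjusted p (0.80 ± 0.27, adjusted p = 0.0411, limma) but at 1.74-fold missed the fold minimum. Another Acly probe set, of lower signal, was called higher in UGE than in Sca-1Neg (1.09 ± 0.36, adjusted p = 0.0361, limma), Sca-1Hi (1.29 ± 0.38) and Sca-1Lo (1.12 ± 0.36). A further probe set was called higher in UGE than in Sca-1Hi (1.03 ± 0.30) and Sca-1Lo (0.84 ± 0.28), and the remaining Acly probe sets were not called. Acss2 went the opposite way, with 115, 105 and 66.8 in UGE, 318, 166 and 173 in Sca-1Hi, 369, 261, 378 and 292 in Sca-1Lo and 206, 133, 427 and 320.4 in Sca-1Neg. Every UGE array lay below every adult array, 2.66-fold below Sca-1Neg (-1.41 ± 0.38, adjusted p = 0.015, limma) and 3.45-fold below Sca-1Lo (-1.79 ± 0.38, adjusted p = 0.00429, limma), and against Sca-1Hi the adjusted p was 0.0506 (limma) for a difference of -1.17 ± 0.41. Acaca, which commits acetyl-CoA to fatty acids as malonyl-CoA, gave 798, 1313 and 901 in UGE, 338, 265 and 382 in Sca-1Hi, 347, 249, 391 and 547 in Sca-1Lo and 342, 328, 468 and 808 in Sca-1Neg. UGE overlapped Sca-1Neg by 1 array, replicate 4, and was 2.16-fold above that group (1.11 ± 0.35, adjusted p = 0.0312, limma) and 3.02-fold and 2.66-fold above Sca-1Hi and Sca-1Lo. Fasn, the fatty acid synthase, had 1908, 3261 and 2482 in UGE, 877, 1125 and 1079 in Sca-1Hi, 1226, 893, 1251 and 1245 in Sca-1Lo and 950.4, 641, 2158 and 1932 in Sca-1Neg. The Sca-1Neg arrays split by study number, with those of numbers 3 to 5 near UGE, and Fasn was called in UGE against Sca-1Hi (2.44-fold, adjusted p = 0.0316, limma) and Sca-1Lo (2.18-fold, adjusted p = 0.0469, limma) and not against Sca-1Neg (0.98 ± 0.38, adjusted p = 0.0712, limma). The call against Sca-1Hi was lost on leaving out any of 5 of the 14 arrays and that against Sca-1Lo on leaving out any of 10. Me1, the malic enzyme that supplies reducing power, was called in no comparison by its representing probe set. That probe set lay at 281 to 667 in UGE, 236 to 353 in Sca-1Hi, 271 to 387 in Sca-1Lo and 161 to 583 in Sca-1Neg. The other probe set of Me1 was called higher in UGE than in Sca-1Hi (1.06 ± 0.36, adjusted p = 0.0421, limma).

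The desaturases Scd1 and Scd2, neighbours on chromosome 19 with 1 protein-coding gene between them, both make monounsaturated fatty acids. By their representing probe sets they were called in opposite directions in UGE against Sca-1Neg. Scd1 had signals of 195, 78.7 and 312 in UGE, 572, 419.7 and 1235 in Sca-1Hi, 2098, 1693, 997 and 1854 in Sca-1Lo and 782, 858, 4764 and 1502 in Sca-1Neg. All UGE arrays lay below all adult arrays, and Sca-1Neg replicate 3 was the highest. UGE was 8.79-fold below Sca-1Neg (-3.13 ± 0.62, adjusted p = 0.00221, limma), 9.50-fold below Sca-1Lo (-3.25 ± 0.62, adjusted p = 0.00196, limma) and 3.96-fold below Sca-1Hi (-1.99 ± 0.66, adjusted p = 0.0408, limma). Against Sca-1Neg the difference was -2.28 with the adult arrays numbered 1 and 2 and -3.99 with those numbered 3 to 5. Scd2 gave 10316, 13514 and 14148 in UGE, 2954, 3301 and 4316 in Sca-1Hi, 6250.3, 4813, 5116 and 5966 in Sca-1Lo and 3979, 3693, 9127 and 7719 in Sca-1Neg. All UGE arrays lay above all adult arrays, 2.21-fold over Sca-1Neg (1.15 ± 0.32, adjusted p = 0.0177, limma) and above Sca-1Hi on the log2 scale by 1.85 ± 0.34 (adjusted p = 0.00151, limma). The difference from Sca-1Neg was 1.71 with numbers 1 and 2 and 0.58, not called, with numbers 3 to 5. The call against Sca-1Neg was lost without UGE replicate 2 or 3 or Sca-1Neg replicate 1. Elovl6, which lengthens palmitate to stearate, the main substrate of the Scd enzymes, had 670.2, 879 and 960.5 in UGE, 107, 94.9 and 171 in Sca-1Hi, 221, 130.2, 369.8 and 341 in Sca-1Lo and 477, 365, 184 and 646 in Sca-1Neg. It was the 1 fatty acid enzyme called lower in Sca-1Hi by its representing probe set, with UGE above all adult arrays and the 3 Sca-1Hi arrays below all Sca-1Neg arrays. Sca-1Hi was 3.15-fold below Sca-1Neg (-1.66 ± 0.44, adjusted p = 0.0265, limma) and UGE was 6.88-fold above Sca-1Hi (2.78 ± 0.47, adjusted p = 0.000759, limma) and not called against Sca-1Neg (1.12 ± 0.44, adjusted p = 0.0732, limma).

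Acsl3, which activates fatty acids to acyl-CoA for lipid droplets and membranes, gave 1008, 1693 and 1628 in UGE, 329, 295 and 427 in Sca-1Hi, 313, 313, 379.6 and 378 in Sca-1Lo and 358, 327, 453 and 876 in Sca-1Neg. The UGE arrays stood above every adult array and the adult groups overlapped. Against Sca-1Neg the level was 3.03-fold (1.60 ± 0.33, adjusted p = 0.00287, limma), the largest of the upward differences of the 35 members there, against Sca-1Hi 4.06-fold and against Sca-1Lo 4.08-fold. Fads1 and Fads2, the desaturases of polyunsaturated fatty acids, which lie next to each other on chromosome 19, were called in no comparison. Their highest signals were on the adult arrays of numbers 3 to 5, Fads1 at 821 and 1066 on Sca-1Lo replicates 3 and 4 and 1161 on Sca-1Neg replicate 4, and Fads2 at 1034, 1139 and 966 on the same arrays, above all UGE arrays, which lay at 549.7 to 603 and 438 to 547.

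**Figure D3:**
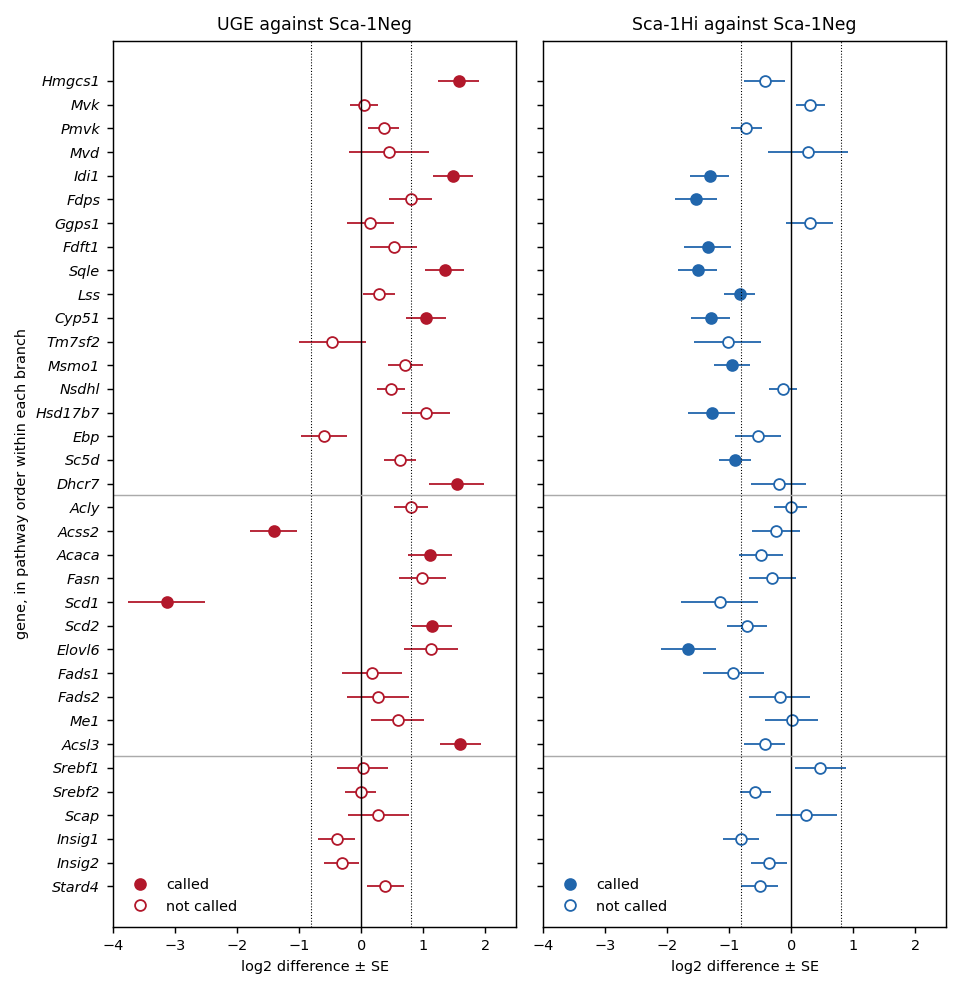
Log2 difference (horizontal axis, bars are SE of the fit) of each member in UGE against Sca-1Neg (left) and Sca-1Hi against Sca-1Neg (right), in pathway order; filled points are called and dotted lines mark the fold minimum, 0.81 either way. The 9 sterol enzymes called lower in Sca-1Hi run from Idi1 to Sc5d, and no regulator is filled.

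None of the 6 regulators was called in any of the 6 comparisons by its representing probe set over all arrays. Srebf1 and Srebf2 encode the SREBP transcription factors. Srebf1 had 1066, 2194 and 1421 in UGE, 1854, 2268 and 1989 in Sca-1Hi, 2271, 1322, 2148 and 2292 in Sca-1Lo and 928, 846, 2814 and 2097 in Sca-1Neg, and the Sca-1Neg arrays of numbers 1 and 2 were the lowest of all. Its log2 difference was 0.02 ± 0.41 in UGE and 0.47 ± 0.41 in Sca-1Hi, both against Sca-1Neg. Srebf2, the factor that mainly drives the sterol enzymes, gave 181, 193 and 221 in UGE, 132, 142 and 126 in Sca-1Hi, 131, 156, 84.5 and 107 in Sca-1Lo and 180.4, 176, 186 and 263 in Sca-1Neg. The Sca-1Hi and Sca-1Lo arrays all lay below the 4 Sca-1Neg arrays, with differences of -0.57 ± 0.25 and -0.77 ± 0.23 (adjusted p = 0.147 and 0.117, limma), and UGE overlapped Sca-1Neg (-0.01 ± 0.25). Against Sca-1Lo, UGE passed the adjusted p (0.0406, limma) at 1.70-fold, under the fold minimum. Insig1, itself a target of SREBP that retains Scap in the endoplasmic reticulum, had 255, 192 and 259 in UGE, 215, 122 and 205 in Sca-1Hi, 338, 309.8, 263 and 315 in Sca-1Lo and 221, 244, 431 and 384 in Sca-1Neg. The Sca-1Hi arrays were again below all Sca-1Neg arrays (-0.81 ± 0.29, adjusted p = 0.0871, limma), and UGE overlapped both groups. With the adult arrays numbered 3 to 5 alone, Insig1 was called lower in Sca-1Hi than in Sca-1Neg (-1.36 ± 0.33, adjusted p = 0.0445, limma) and Srebf2 higher in UGE than in Sca-1Lo (1.06 ± 0.26), and with numbers 1 and 2 alone Scap was called higher in UGE than in Sca-1Neg (1.23 ± 0.30). Scap was 1647 ± 426 in UGE, 1619 ± 445 in Sca-1Hi, 1571 ± 148 in Sca-1Lo and 1724 ± 1439 in Sca-1Neg (SD), the last with values of 622 to 3742. Insig2 was 572 ± 71.1 in UGE, 555 ± 67.7 in Sca-1Hi, 689 ± 192 in Sca-1Lo and 727 ± 191 in Sca-1Neg (SD). Stard4, which moves cholesterol between membranes, was at 454 ± 103 in UGE, 244 ± 46.1 in Sca-1Hi, 333 ± 59.1 in Sca-1Lo and 357 ± 121 in Sca-1Neg (SD), with all UGE arrays above all Sca-1Hi arrays (0.89 ± 0.32, adjusted p = 0.0549, limma). A miss of the threshold does not show that these levels were equal.

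Of the 35 members, 26 had further probe sets, 47 in all, and these bear on the calls. Of the other probe sets of members called by the representing one, 10 of 15 gave the same call in UGE against Sca-1Neg, 5 of 15 in Sca-1Hi against Sca-1Neg, 14 of 25 in UGE against Sca-1Hi and 15 of 27 in UGE against Sca-1Lo. The 5 in Sca-1Hi against Sca-1Neg were of Idi1, Fdft1, Lss, Cyp51 and Sc5d. Mvk, not called by its representing probe set, was called higher in UGE by its other one, at log2 differences of 1.03 ± 0.31 against Sca-1Neg, 1.59 ± 0.34 against Sca-1Hi and 1.53 ± 0.31 against Sca-1Lo (SE). Mvd behaved alike against Sca-1Hi (2.59 ± 0.51) and Sca-1Lo (1.57 ± 0.48), and its other probe set against Sca-1Neg gave 1.25 ± 0.48 (adjusted p = 0.0667, limma). Another probe set of Stard4 was called lower in Sca-1Hi than in Sca-1Neg (-0.97 ± 0.27, adjusted p = 0.0322, limma) and higher in UGE than in Sca-1Hi (1.71 ± 0.29) and Sca-1Lo (0.91 ± 0.27), and another of Srebf2 was called higher in UGE than in Sca-1Hi (1.36 ± 0.38) and Sca-1Lo (1.05 ± 0.36, adjusted p = 0.0469, limma). For Msmo1 the other probe set, of lower signal, went against the first, at 2.35 ± 0.77 in Sca-1Hi against Sca-1Neg (adjusted p = 0.0632, limma) and -2.75 ± 0.82 in UGE against Sca-1Hi (adjusted p = 0.0247, limma), the single opposite call. The direction of Msmo1 in Sca-1Hi therefore depended on the probe set. For Hsd17b7, other probe sets were called higher in UGE than in Sca-1Neg (1.09 ± 0.31 and 1.17 ± 0.25) and gave -0.36 ± 0.31 and -0.064 ± 0.25 in Sca-1Hi, not called. For Elovl6, another probe set of similar mean log2 signal (8.21 against 8.27) gave -0.84 ± 0.50 in Sca-1Hi against Sca-1Neg and 1.49 ± 0.54 in UGE against Sca-1Hi. A further probe set of Elovl6, of lower signal, gave 0.85 ± 0.45 and -0.35 ± 0.48 there. None of these Elovl6 differences was called. For Acss2, another probe set of similar mean log2 signal (7.69 against 7.70) was called lower in UGE than in Sca-1Hi (-1.04 ± 0.30, adjusted p = 0.0212, limma). It was also called lower in UGE than in Sca-1Neg and Sca-1Lo. A further probe set of Acss2, of low signal, gave -0.41 ± 0.41 in UGE against Sca-1Hi, not called. Of the 4 other probe sets of Hmgcs1, 3 gave differences of 1.54 to 1.68 in UGE against Sca-1Neg and 1 gave 0.45 ± 0.60. The other probe sets of Scd2 gave 0.45 ± 0.29 and 0.33 ± 0.27 in UGE against Sca-1Neg, not called. The first of them was called higher in UGE than in Sca-1Hi (1.64 ± 0.31) and Sca-1Lo (0.95 ± 0.29). It was also called lower in Sca-1Hi than in Sca-1Neg (-1.19 ± 0.29, adjusted p = 0.0193, limma), where the second gave 0.03 ± 0.27. For Acsl3, the other probe sets gave -1.37 ± 0.40 (called, adjusted p = 0.0405, limma) and -0.39 ± 0.27 (not called) in Sca-1Hi against Sca-1Neg. The other probe set of Scd1 was called lower in UGE than in Sca-1Neg (-2.91 ± 0.79) and Sca-1Lo (-3.15 ± 0.79). Against Sca-1Hi it was not called (-1.79 ± 0.84, adjusted p = 0.135, limma).

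Set against each other as mean log2 signals, the sterol and the fatty acid branch did not keep the same distance on all arrays. The mean of the 18 sterol enzymes was 9.11 ± 0.07 in UGE, 7.75 ± 0.21 in Sca-1Hi, 8.15 ± 0.29 in Sca-1Lo and 8.48 ± 0.28 in Sca-1Neg, and that of the 11 fatty acid enzymes 9.81 ± 0.15 in UGE, 8.96 ± 0.26 in Sca-1Hi, 9.52 ± 0.34 in Sca-1Lo and 9.51 ± 0.58 in Sca-1Neg (SD over arrays). On the sterol mean all UGE arrays (9.03 to 9.18) lay above all adult arrays, and 2 of the 3 Sca-1Hi arrays (7.51 and 7.80) lay below all Sca-1Lo arrays, while the fatty acid means of UGE overlapped those of Sca-1Lo and Sca-1Neg. The sterol minus the fatty acid mean was -0.61, -0.71 and -0.78 on the UGE arrays, -1.01, -1.20 and -1.42 on the Sca-1Hi arrays, -1.13, -0.65, -1.73 and -1.97 on the Sca-1Lo arrays and -0.71, -0.82, -1.16 and -1.46 on the Sca-1Neg arrays. Within Sca-1Lo and within Sca-1Neg the arrays of numbers 3 to 5 had the lower values, so that the difference between UGE and Sca-1Neg, 0.34 over all arrays with a pooled SD of 0.27, was 0.064 with the adult arrays of numbers 1 and 2 and 0.61 with those of numbers 3 to 5. In place of the mean, the median over the enzymes of each branch turned this difference to -0.19. The difference between Sca-1Hi and Sca-1Neg was -0.17 with a pooled SD of 0.29 and that between Sca-1Lo and Sca-1Neg -0.33 with a pooled SD of 0.48, both within the spread between arrays, and in UGE against Sca-1Neg, where the difference exceeded the pooled SD, the arrays of the groups overlapped. The values of UGE lay above those of Sca-1Hi on every array, by 0.51 on average with a pooled SD of 0.16, and were 0.67 above those of Sca-1Lo with a pooled SD of 0.46, where 1 Sca-1Lo array, replicate 2, lay within the range of UGE. These scores are over chosen genes and carry no test.

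**Figure D4:**
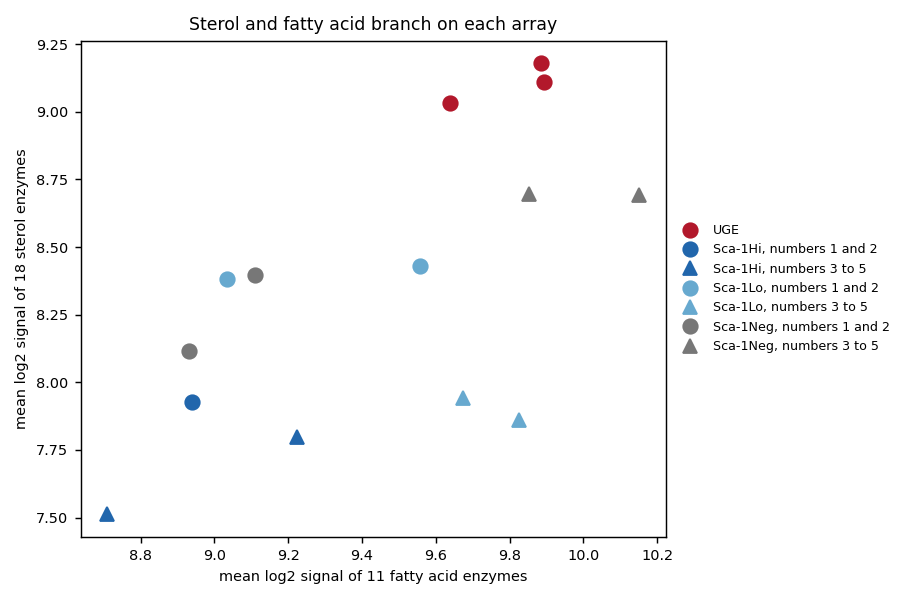
Mean log2 signal of the 18 sterol enzymes (vertical axis) against that of the 11 fatty acid enzymes (horizontal axis), 1 point for each array, coloured by group and shaped by study number among the adult arrays. The UGE arrays are the highest on the sterol axis, at 9.03 to 9.18, and the Sca-1Lo and Sca-1Neg arrays of numbers 3 to 5 (triangles) lie to the right of those of numbers 1 and 2.

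Of 14 genes of cholesterol uptake, storage and export, 12 were measured, and 2 were called lower, Apoe and Nr1h3, and none higher in UGE against Sca-1Neg, where 12.9% of all genes were lower and 16.3% higher. Apoe, the lipoprotein that carries cholesterol out of cells, had 299, 169 and 172 in UGE, 2354, 6026 and 6212 in Sca-1Hi, 5129, 2873, 10560.0 and 11136 in Sca-1Lo and 1194, 1947, 4360.5 and 4062 in Sca-1Neg. UGE was 12.32-fold below Sca-1Neg (-3.62 ± 0.56, adjusted p = 0.000393, limma) and 21.65-fold below Sca-1Hi, with every UGE array under every adult array. Apoe is also made by macrophages and fibroblasts, and the part of the leukocyte and fibroblast sums given above in this difference was not tested. Nr1h3, the oxysterol receptor LXR alpha that switches on cholesterol export, was at 40.4 to 50.8 in UGE, 76.4 to 90.4 in Sca-1Hi, 94.1 to 116 in Sca-1Lo and 84.3 to 101 in Sca-1Neg (-1.07 ± 0.20 in UGE against Sca-1Neg, adjusted p = 0.00144, limma). Scarb1, the receptor that takes cholesterol ester from lipoproteins, gave 513, 533 and 581 in UGE, 2282, 1238 and 2604 in Sca-1Hi, 1724, 1209.7, 2091 and 2361 in Sca-1Lo and 324, 315, 666 and 439 in Sca-1Neg. The 7 arrays of Sca-1Hi and Sca-1Lo were above all others. The level was 4.68-fold over Sca-1Neg in Sca-1Hi (2.23 ± 0.34, adjusted p = 0.00147, limma) and 4.31-fold in Sca-1Lo (2.11 ± 0.31, adjusted p = 0.00479, limma). The endothelial and basal sums given above were also higher in both fractions than in Sca-1Neg, and their part in this difference was not tested. A link with the sterol enzymes was not tested either.

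Among 18 further genes of lipid synthesis that were measured, of 20 listed, 3 were called higher and 3 lower in UGE against Sca-1Neg (16.3% and 12.9% of all genes), and 1 was called higher against Sca-1Neg in Sca-1Hi (6.11%) and in Sca-1Lo (1.68%). Mbtps2, the protease that releases SREBP in the Golgi, had 717, 881 and 916 in UGE, 322, 307 and 390.1 in Sca-1Hi, 388, 310.3, 578 and 552 in Sca-1Lo and 301, 309, 451 and 396 in Sca-1Neg. UGE was above all adult arrays, 2.32-fold over Sca-1Neg (1.22 ± 0.27, adjusted p = 0.00429, limma). Dgat2 and Acsl5 were the other genes higher in UGE, by 1.33 ± 0.23 and 1.05 ± 0.36, and Lpin1, Acsl4 and Thrsp were lower. Acsl4, an acyl-CoA synthetase that prefers polyunsaturated fatty acids, was 3.84-fold lower in UGE than in Sca-1Neg, where its relative Acsl3 was 3.03-fold higher. Thrsp, a lipogenic gene also known as Spot 14 from rat liver, had 1.47, 2.06 and 2.54 in UGE, 456, 154 and 419 in Sca-1Hi, 209, 167, 176 and 225 in Sca-1Lo and 17.6, 30.6, 11.8 and 18.4 in Sca-1Neg. Its UGE signals lay under the floor of 20 and its Sca-1Neg signals around it, so no fold is given, and it was called higher in Sca-1Hi and in Sca-1Lo than in Sca-1Neg (adjusted p = 7.06e-05 and 0.000559, limma). Thrsp is abundant in fat cells, and of 7 fat cell markers the 2 measured summed to 1533 to 5233 in Sca-1Hi and 2599.98 to 4838 in Sca-1Lo, against 523 to 731 in Sca-1Neg. Whether fat cells contributed to it was not tested. Gpam, the first enzyme of triglyceride synthesis, was called higher in UGE than in Sca-1Hi (1.53 ± 0.35) and Sca-1Lo (1.17 ± 0.33). Of 14 fatty acid oxidation genes measured, none was called in UGE against Sca-1Neg (16.3% of all genes higher and 12.9% lower). There 5 of 14 had an unadjusted p under 0.05, against 7201 of 17149 genes. Only Acads was called in any comparison, higher in UGE than in Sca-1Hi (0.94 ± 0.25), where 15.8% of all genes were called higher.

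Of the nuclear receptors and coactivators, Rxra, the common partner of lipid-sensing receptors, had 826, 1473 and 1133 in UGE, 239.6, 243 and 295 in Sca-1Hi, 143, 111, 304 and 298 in Sca-1Lo and 121, 104, 148 and 429 in Sca-1Neg. UGE lay above all adult arrays, 6.62-fold over Sca-1Neg (2.73 ± 0.48, adjusted p = 0.000939, limma). Pparg, the receptor that drives fat storage, gave 135, 352 and 148 in UGE, 134, 90.5 and 79 in Sca-1Hi, 44.4, 44.5, 50.4 and 47.1 in Sca-1Lo and 31.9, 27.6, 8.33 and 16.3 in Sca-1Neg, and was called higher than in Sca-1Neg both in UGE (adjusted p = 9.77e-05, limma) and in Sca-1Hi (adjusted p = 0.00414, limma), with 2 of the 4 Sca-1Neg arrays under the floor of 20. Ppargc1b, a coactivator of SREBP and of oxidative metabolism, was at 38.8 to 62.9 in UGE, 181 to 385 in Sca-1Hi, 62.3 to 150.1 in Sca-1Lo and 179.8 to 891 in Sca-1Neg, lower in UGE than in Sca-1Neg by 5.38-fold (-2.43 ± 0.52, adjusted p = 0.00349, limma).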

How the data were processed

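The authors hybridized labelled RNA of 14 samples to the Affymetrix MOE430 2.0 array and deposited linear signal intensities computed by PLIER over all arrays in ArrayAssist, per the labels and the study's methods; their MAS5 detection calls were left aside. Signals were taken as log2 without a constant. The 64 array controls were left out, and of 45101 probe sets those exceeding a signal of 20 on some array, 41031, entered the test. Probe sets were named by the platform's annotation: 34958 had 1 gene, 932 several and 9160 none. limma 3.58.1 (R 4.3.3) fitted the 4 group means over the 14 arrays in one model, with Benjamini-Hochberg adjustment over all 41031 probe sets. The step was tested on simulated data. All 35 members are named by rule, with the value of every array for those called in a comparison or discussed. Study numbers were joined to the arrays by matching signals of 1050 probe sets in a supplementary table. Alternatives were to drop the filter, to require 3 arrays over 20, to add 16 to each signal, to normalize by quantiles, to centre each array on its 75th percentile, to use the methods' t-test, only the 2 groups compared, the replicate number as a block, study number sets as a block, no fold minimum, an intensity trend, array weights, a mean over a gene's probe sets, the branch median and each array left out. The methods' t-test was here adjusted over all 41031 probe sets, while the study narrowed its transcripts by variation and by 2 further tests before comparing groups. Fits with 1 set of adult arrays only were chosen after seeing the data. The members and lists were chosen with earlier results of these data known. The number of arrays, 3 or 4 a group, limits the precision.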

Additional observations from a re-analysis of the deposited data

Results flagged for a closer look

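Within the 70 groups of 4 arrays tested, over the 35 members, 8 had 1 array far from the others by Dixon's gap ratio, where chance gives about 1 in 20. On Sca-1Neg replicate 4, 3 were high: Hmgcs1 at 2914 against 1518 to 1653 on the other 3 arrays (gap ratio 0.869), Fads1 at 1161 against 371 to 406 (0.921) and Srebf2 at 263 against 176 to 186 (0.86). On Sca-1Lo replicate 2, 3 were low: Fasn at 893 against 1226 to 1251 (0.94), Me1 at 271 against 384 to 387 (0.974) and Srebf1 at 1322 against 2148 to 2292 (0.882). Ebp was high on Sca-1Neg replicate 3, at 1502 against 569 to 651 (0.861), and Pmvk low on Sca-1Lo replicate 4, at 147 against 189 to 198 (0.85). Hmgcs1 in UGE against Sca-1Neg kept its call without Sca-1Neg replicate 4, whereas in UGE against Sca-1Lo Fasn lost its call without Sca-1Lo replicate 2 and Pmvk without Sca-1Lo replicate 4.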

How the results depend on the processing

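Of 57 calls of members, 53 held without the signal filter, 57 with a signal above 20 on at least 3 arrays, 54 with 16 added, 50 with quantile normalization and 50 with centring on the 75th percentile, 33 by the methods' t-test, 44 with only the 2 groups compared, 54 with array weights and 42 with the mean of a gene's probe sets, where 3 turned, all of Msmo1: 0.70 in Sca-1Hi against Sca-1Neg, -0.55 in UGE against Sca-1Hi and -0.054 in UGE against Sca-1Lo. Members higher in UGE against Sca-1Neg, 8, were 3 by the t-test, 5 with only 2 groups and 15 with array weights. They were 17 and 2 with the adult arrays numbered 1 and 2 or 3 to 5, and 4 to 11 with 1 array left out. All genes higher, 2794, were 1452 by the t-test, 2165 with only 2 groups, 4523 with array weights and 1883 to 3239 with 1 array left out. The members lower there, 2, were 0 by the t-test, 1 with only 2 groups, 1 with numbers 1 and 2, and 1 to 2 with 1 array left out. All genes lower, 2207, were 873 by the t-test, 1791 with only 2 groups and 1508 to 2432 with 1 array left out. Members lower in Sca-1Hi against Sca-1Neg, 10, were 0 by the t-test, 3 with only 2 groups, 4 with the mean of a gene's probe sets, 1 with numbers 1 and 2, and 0 to 10 with 1 array left out, where all genes lower, 893, were 7 by the t-test, 460 with only 2 groups, 836 with the mean of probe sets and 299 to 1116 with 1 array left out. Array weights called 2 members higher in Sca-1Hi, and 6 higher and 4 lower in Sca-1Lo, against Sca-1Neg, where all genes were 2892 higher in Sca-1Hi, and 2866 higher and 1588 lower in Sca-1Lo, and numbers 3 to 5 gave 2 lower in Sca-1Lo. The 1 member lower in UGE against Sca-1Hi was 2 with the stricter filter, quantile normalization, centring, only 2 groups, the intensity trend or array weights, 0 by the t-test, the mean of probe sets or numbers 3 to 5, and 0 to 2 with 1 array left out. All genes lower there, 2057, were 2060 to 3561 in the settings that gave 2. They were 1512 by the t-test, 2163 with the mean of probe sets, 2264 with numbers 3 to 5 and 1386 to 2274 with 1 array left out. Members higher in UGE against Sca-1Lo, 17, were 9 to 17 with 1 array left out, where all genes higher, 2300, were 1513 to 2452. The 2 lower were 4 with numbers 1 and 2, where all genes lower, 2085, were 2706. The sterol minus fatty acid difference of UGE against Sca-1Neg, 0.34, was -0.19 by the branch median, and 0.064 and 0.61 with numbers 1 and 2 or 3 to 5. The causes were not tested.

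Arrays with the same replicate number correlated at -0.45 to 0.56, over 0.1 in 11 of 19 pairs. These pairs include the UGE arrays, which came from embryos, and Sca-1Hi replicate 2. That array has study number 3, while replicate 2 of Sca-1Lo and of Sca-1Neg has number 2. The correlations by replicate number therefore cannot decide whether adult fractions were paired by study number. Between groups, adult arrays of the same study number correlated at -0.06 to 0.56, and those of one set with different numbers at -0.09 to 0.70. These ranges overlap and do not settle the pairing, and a block on each study number was not fitted. With the replicate number as a block, 11 members were higher and 2 lower in UGE against Sca-1Neg, 6 lower in Sca-1Hi against Sca-1Neg, and 19 higher in UGE against either Sca-1Hi or Sca-1Lo, where of all genes 3395 were higher and 2307 lower in UGE against Sca-1Neg, 813 lower in Sca-1Hi against Sca-1Neg, and 2964 and 2845 higher in UGE against Sca-1Hi and Sca-1Lo.

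Centring on the 75th percentile moved the median log2 difference of all genes in UGE against Sca-1Neg to -0.15, from 0.07, and the genes called higher and lower to 2258 and 2771, from 2794 and 2207, so each upward value of UGE is relative to the arrays' common scale. The signal floor limits Hsd17b7 on Sca-1Hi replicate 2.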
